A study of Mus musculus with 32 samples.

Results

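Messenger RNA levels were described for 36 genes of megakaryocytes and platelets, taken by symbol from a table of raw read counts for 24421 genes. All 36 symbols were in the table, and 34 of them were among the 14154 genes that passed a filter on low counts and were tested. Gp6 and Cd226 did not pass it and are given as counts only. The set held 4 subunits of the receptor for von Willebrand factor, and 3 receptor genes, namely Gp6 for collagen, Clec1b for podoplanin, and Treml1. It also held 4 genes of the platelet integrin and its activation, 8 granule or secreted proteins, and 6 receptors for thrombin, nucleotides and thromboxane. The rest were 2 enzymes of thromboxane synthesis, 7 genes of signalling, secretion and the cytoskeleton, and 2 other surface proteins.

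The bone marrow of female C57BL/6 mice aged 10 weeks (young) or 20 months (aged) had been sorted into 8 fractions, with 2 libraries for each fraction and age, 32 in all. Lineage-negative, Sca-1+ and c-Kit+ cells without the interleukin-7 receptor were divided into HSCs (CD34- and CD150+, without CD48 or Flt3), MPP1 (as HSCs but CD34+), MPP2 (CD34+, CD150+ and CD48+, without Flt3), MPP3 (CD34+ and CD48+, without CD150 or Flt3) and MPP4 (as MPP3 but Flt3+). Sca-1- and c-Kit+ cells gave GMPs (CD34+ and Fc gamma receptor+) and MEPs (negative for both), and cells with the interleukin-7 receptor and low Sca-1 and c-Kit gave CLPs. No engineered allele and no treatment is named for any of the groups. Marrow was pooled within an age and sorted in duplicate, and the aged mice had been kept in the study's own facilities after purchase. The p-values therefore measure the spread between these libraries, which may be technical, and age and time in those facilities cannot be told apart.

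Megakaryocytes are large marrow cells that shed platelets. Platelets stick to a damaged vessel through the glycoprotein Ib-IX-V complex, which binds von Willebrand factor, and are activated through receptors for collagen, thrombin, ADP and thromboxane. They then clump through the integrin alphaIIb beta3 and release granules that hold chemokines such as platelet factor 4. In the mouse, part of this gene set is already transcribed in HSCs, and a subset of HSCs marked by Vwf is known to be biased towards platelets.

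Library totals ran from 11237384 to 17723245 counts, so that 3 counts equalled 0.186 to 0.281 CPM. CPM here means counts scaled to the library total in the usual CPM unit, after TMM scaling, and 2 values given together are always replicates 1 and 2 of a group. RNA of the sorting antigens followed the gates in part. Il7r stood at 157 to 201 CPM in the 4 CLP libraries and Fcgr3 at 473 to 497 CPM in the 4 GMP libraries. In MEPs, Il7r stood at 9.99 and 16.8 CPM in young and 0.187 and 0.4303 CPM in aged cells. Ly6a, which encodes Sca-1, stood at 34.4 and 35.9 CPM in young and 221 and 207 CPM in aged CLPs, against 213 and 196 CPM in the Sca-1+ aged MPP3. Flt3 stood at 262 and 297 CPM in the Flt3- young MPP3 and at 1059 and 1066 CPM in the Flt3+ young MPP4. Replicates of a group differed by more than sampling noise in all 16 groups (chi-square per gene 4.59 to 19.0). In bulk RNA, fewer cells of a type and less RNA per cell cannot be told apart, which holds for every value below.

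RefSeq promoter sequences on build GRCm38.p6 were matched to 28 of the 36 genes and gave 30 windows of the 250 bases before the start of transcription. They were searched for short motifs on both strands. The GATA factors were searched by the letters AGATAA, by the related hexamer TGATAA in the same windows, and by the further hexamer AGATAG in the same windows. The ETS factors were searched by the letters CAGGAA, and by the related hexamer CCGGAA in the same windows. AP-1 with NF-E2 was searched by the heptamer TGACTCA, and by the related heptamer TGAGTCA in the same windows. The RUNX factors were searched by the hexamer TGTGGT only. A GATA match was present in 7 of the 30 windows (23.3%) and in 22.3% of all 32851 promoters of the same length. An ETS match was present in 12 of 30 (40%, against 35.1%), an AP-1 and NF-E2 match in 2 (6.67%, against 4.46%) and a RUNX match in 4 (13.3%, against 14%). The windows of Clec1b, F2rl2, Gp1ba, Gp5, Gp6, Mmrn1 and P2rx1 held the GATA letters. An ETS and a RUNX match overlapped in the window of Fermt3, and matches of different motifs overlapped in no other window. A match is a string of letters and not a measured binding site. Below are the windows of 5 genes that rose together in aged CLPs. They lie at chr11:70638872-70639121 (Gp1ba, plus strand), chr16:30310782-30311031 (Gp5, minus strand), chr17:48359666-48359915 (Treml1, plus strand), chr5:90768268-90768517 (Ppbp, plus strand) and chr5:90772185-90772434 (Pf4, plus strand). Capitals mark GATA and ETS letters on either strand. Gp1ba held 3 GATA matches and 1 ETS match, Gp5 held 3 GATA matches, Treml1 and Ppbp held 1 ETS match each, and Pf4 held neither although its start lies 3917 bases from that of Ppbp.
Gp1ba: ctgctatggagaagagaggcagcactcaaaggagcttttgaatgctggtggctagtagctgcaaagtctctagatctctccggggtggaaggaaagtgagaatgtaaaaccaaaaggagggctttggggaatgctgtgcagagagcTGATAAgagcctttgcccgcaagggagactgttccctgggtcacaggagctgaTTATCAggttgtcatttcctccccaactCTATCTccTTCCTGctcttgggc
Gp5: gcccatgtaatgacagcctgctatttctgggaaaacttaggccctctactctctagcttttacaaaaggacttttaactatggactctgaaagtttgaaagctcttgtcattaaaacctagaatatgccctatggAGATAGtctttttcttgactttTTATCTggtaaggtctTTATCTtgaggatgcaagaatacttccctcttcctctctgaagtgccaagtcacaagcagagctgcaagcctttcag
Treml1: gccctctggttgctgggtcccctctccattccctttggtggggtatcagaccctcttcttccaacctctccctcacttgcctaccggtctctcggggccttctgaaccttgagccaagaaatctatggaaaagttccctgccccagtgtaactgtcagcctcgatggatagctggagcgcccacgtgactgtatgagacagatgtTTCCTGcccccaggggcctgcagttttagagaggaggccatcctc
Ppbp: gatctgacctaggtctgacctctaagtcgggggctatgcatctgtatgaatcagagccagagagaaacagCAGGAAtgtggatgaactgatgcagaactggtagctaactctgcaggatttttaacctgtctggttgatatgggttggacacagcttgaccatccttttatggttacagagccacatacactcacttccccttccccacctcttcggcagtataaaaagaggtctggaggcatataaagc
Pf4: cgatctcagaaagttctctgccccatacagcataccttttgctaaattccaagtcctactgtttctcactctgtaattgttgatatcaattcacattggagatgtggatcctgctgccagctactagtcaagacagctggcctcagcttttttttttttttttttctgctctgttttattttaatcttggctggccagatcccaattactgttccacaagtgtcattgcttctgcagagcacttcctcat

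In young marrow the summed level of the 36 genes was highest in HSCs, at 4146 and 4030.3 CPM. MPP1 followed at 3400.0 and 3487 CPM, MPP2 at 3316 and 3268 CPM, and the lowest sum was that of CLPs, at 1189.9 and 1187 CPM. Genes of high level weigh most in these sums. Counted by gene, the highest mean level fell in HSCs for 15 of the 36 genes, in MPP2 for 10, in MEPs for 5, in MPP4 for 2, in CLPs for 2, and in MPP1 and GMPs for 1 each. The 15 genes of HSCs were Vwf, Mmrn1, Pdgfb, Gp9, Clec1b, Itgb3, Fermt3, P2rx1, Ptgs1, Tbxas1, Rab27b, Nrgn, Gng11, Trpc6 and Cd9. The 10 genes of MPP2 were Gp1ba, Gp1bb, Treml1, Itga2b, Pf4, Ppbp, F2r, F2rl2, Tubb1 and Myl9. MEPs were highest for Gp5, Gp6, Ltbp1, P2ry1 and Cd226, MPP4 for Thbs1 and Plek, CLPs for P2ry12 and Tbxa2r, MPP1 for Angpt1 and GMPs for Rap1b. Some of these places rest on differences within the replicate spread: Fermt3, the adaptor kindlin-3, stood at 636 and 629.8 CPM in young HSCs and 635 and 621 CPM in young MPP2.

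**Figure D1:**
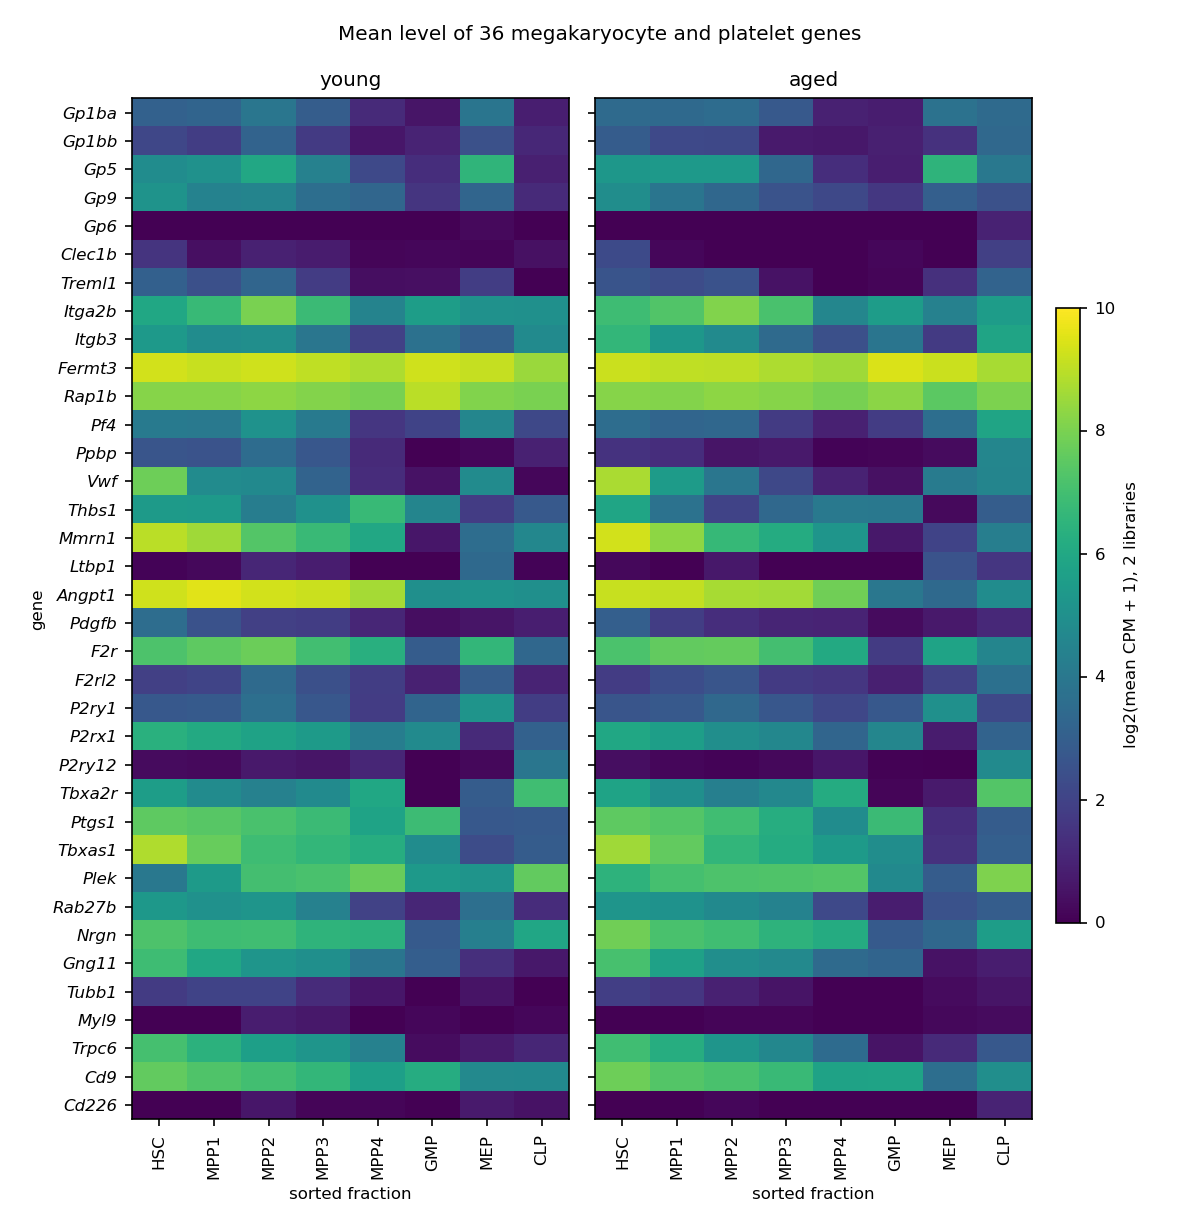
Mean level of the 36 genes (vertical axis) in the 8 fractions (horizontal axis) of young and aged marrow, as log2(mean CPM + 1) of 2 libraries. Vwf and Mmrn1 were brightest in HSCs, Gp5 and Ltbp1 in MEPs, and the aged CLP column was brighter than the young one for Pf4, Ppbp, Vwf and Gp5.

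Levels of different genes were set side by side only per kilobase of annotated exon. In young HSCs, the highest values were those of Gng11 (129 CPM per kilobase), Angpt1 (120.2) and Fermt3 (109). In young MEPs, Rap1b (96.3) and Fermt3 (96.1) were followed by Gp5 (41.6) and Pf4 (32.4 CPM per kilobase). Pf4 ranked 10th of 36 in young CLPs, at 4.86 CPM per kilobase, and 3rd in aged CLPs, at 78.8.

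Young HSCs exceeded young MPP4, the lymphoid-primed progenitors, for 24 of the 34 tested genes and were lower for 2 (edgeR's quasi-likelihood test, Benjamini-Hochberg adjusted p under 0.01 over 14154 genes). Among all tested genes 34.6% differed in either direction. Vwf, which tethers platelets to vessel walls, stood at 225 and 218 CPM in HSCs and 1.55 and 1.29 CPM in MPP4 (log2 fold change of 7.27 ± 0.31 SE, adjusted p = 3.32e-14). Treml1, an alpha-granule receptor, stood at 7.85 and 7.04 CPM in HSCs and 0.248 and 0.304 CPM in MPP4 (log2 fold change of 4.72 ± 0.73 SE, adjusted p = 2.32e-05). Itgb3, the beta3 subunit, stood at 43.3 and 38.1 CPM in HSCs and 2.54 and 3.04 CPM in MPP4 (log2 fold change of 3.87 ± 0.39 SE, adjusted p = 4.27e-08). Rab27b, a GTPase of granule release, stood at 39.9 and 38.3 CPM in HSCs and 1.79 and 3.96 CPM in MPP4 (log2 fold change of 3.79 ± 0.38 SE, adjusted p = 3.36e-08). Its log2 fold change was 4.45 without young MPP4 replicate 2. The 2 genes lower in HSCs were Plek, the protein kinase C substrate pleckstrin, and Thbs1, the adhesive granule protein thrombospondin-1. Plek stood at 14.7 and 15.1 CPM in HSCs and 204 and 214 CPM in MPP4 (log2 fold change of -3.81 ± 0.21 SE, adjusted p = 2.03e-12), and Thbs1 at 49.1 and 36.6 CPM in HSCs and 112 and 101 CPM in MPP4 (log2 fold change of -1.32 ± 0.27 SE, adjusted p = 0.000394). No library of one group overlapped the other for these 6 genes.

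Young MPP2, described by the study as biased to megakaryocytes and erythroid cells, exceeded young MPP3 for 4 of 34 genes and was lower for 0, against 2.39% of all tested genes in either direction. At an unadjusted p under 0.05 the counts were 20 higher and 2 lower, and with DESeq2 they were 9 and 0. Vwf stood at 26.7 and 25.6 CPM in MPP2 and 7.498 and 8.52 CPM in MPP3 (log2 fold change of 1.71 ± 0.25 SE, adjusted p = 0.000158). Gp5, the glycoprotein V subunit, stood at 59.1 and 65.8 CPM in MPP2 and 20.3 and 19.3 CPM in MPP3 (log2 fold change of 1.66 ± 0.16 SE, adjusted p = 1.02e-06). Itga2b, the alphaIIb subunit also known as CD41, stood at 249.4 and 255 CPM in MPP2 and 108 and 113 CPM in MPP3 (log2 fold change of 1.19 ± 0.15 SE, adjusted p = 1.94e-05). Gp9, the glycoprotein IX subunit, stood at 21.3 and 22.8 CPM in MPP2 and 11.1 and 11.2 CPM in MPP3 (log2 fold change of 0.98 ± 0.21 SE, adjusted p = 0.00613). The call of Gp9 was lost without any 1 of the 4 libraries (adjusted p 0.0388 to 0.0742).

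Between the progenitors past the multipotent stage, young MEPs exceeded young GMPs for 16 of 34 genes and were lower for 8, where 50.5% of all tested genes differed in either direction. The median log2 difference of the 34 genes was 1.84, and 1.49 over the 31 above 3 counts with 3 of them at their bound. Ltbp1, which holds latent TGF-beta, had 8.899 and 10.2 CPM in MEPs and 0 counts in both GMP libraries, at least 5.50 higher on the log2 scale against a floor of 3 counts in each library. Tbxa2r, the thromboxane receptor, had 5.19 and 7.82 CPM in MEPs and 0 counts in GMPs, at least 4.95 higher. Vwf stood at 23.9 and 31.01 CPM in MEPs and 0.285 and 0.484 CPM in GMPs (log2 fold change of 6.12 ± 0.40 SE, adjusted p = 1.24e-11). Gp5 stood at 90.4 and 92.3 CPM in MEPs and 1.14 and 1.87 CPM in GMPs (log2 fold change of 5.91 ± 0.22 SE, adjusted p = 5.42e-16). The genes of thromboxane synthesis went the other way. Ptgs1, which encodes cyclooxygenase-1, stood at 7.49 and 4.16 CPM in MEPs and 104 and 123 CPM in GMPs (log2 fold change of -4.27 ± 0.16 SE, adjusted p = 9.53e-16), and Tbxas1, thromboxane synthase, at 3.46 and 4.67 CPM in MEPs and 24.1 and 31.7 CPM in GMPs (log2 fold change of -2.78 ± 0.17 SE, adjusted p = 2.72e-12). The ATP-gated channel P2rx1 (2.05 and 0.502 against 26.1 and 26.5 CPM, log2 fold change of -4.32 ± 0.26 SE, adjusted p = 2.78e-12) and Thbs1 (0.896 and 4.02 against 25.3 and 19.5 CPM, log2 fold change of -3.22 ± 0.36 SE, adjusted p = 9.11e-08) were also lower in MEPs. Without young MEP replicate 1 or 2 the log2 fold change was -5.58 or -3.53 for P2rx1 and -2.37 or -4.48 for Thbs1.

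With age, these genes moved in different directions in different fractions. Of the 34 tested, 28 differed between aged and young cells in at least 1 fraction, as did 46.2% of all tested genes. Of these 28, 6 were only higher in aged cells (Gp1ba, Gp1bb, Treml1, Itgb3, F2rl2 and Trpc6), 12 were only lower (Fermt3, Rap1b, Thbs1, Mmrn1, Angpt1, P2rx1, Tbxa2r, Ptgs1, Tbxas1, Gng11, Tubb1 and Cd9), and 10 rose in at least 1 fraction while falling in at least 1 other (Gp5, Gp9, Itga2b, Pf4, Ppbp, Vwf, F2r, Plek, Rab27b and Nrgn). Among all tested genes 20.1% were only higher, 16.6% only lower and 9.5% both. Clec1b, Ltbp1, Pdgfb, P2ry1, P2ry12 and Myl9 passed the test in no fraction. In aged marrow the highest mean level fell in HSCs for 17 genes, in CLPs for 11, in MEPs for 4, in MPP2 for 3 and in GMPs for 1. CLPs held the highest aged level of 11 genes, against the highest young level of 2. The 11 were Gp1bb, Treml1, Pf4, Ppbp, F2rl2, Plek, P2ry12, Tbxa2r, Gp6, Cd226 and Myl9. Gp6 and Cd226 were not tested, and Plek, P2ry12, Tbxa2r and Myl9 did not pass the test in CLPs. P2ry12 and Tbxa2r were the 2 that were also highest in young CLPs. Gp6, Cd226 and Myl9 had means of only 0.954, 0.972 and 0.227 CPM in aged CLPs.

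**Figure D2:**
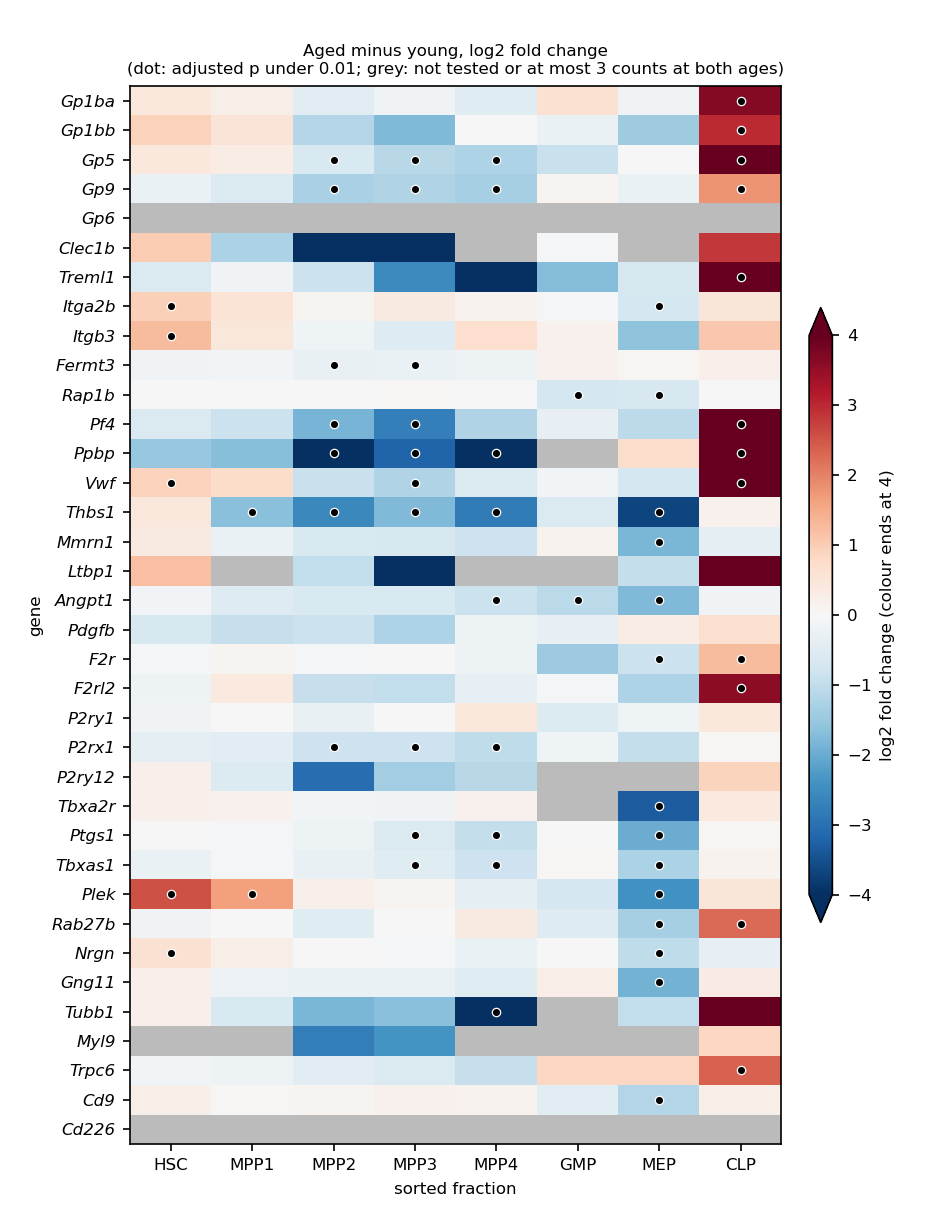
Log2 fold change, aged minus young, of the 36 genes (vertical axis) in the 8 fractions (horizontal axis), where a dot marks an adjusted p under 0.01 and grey marks genes not tested or at most 3 counts at both ages. The HSC column held 5 dots on red, the MPP2, MPP3 and MPP4 columns 7, 10 and 9 dots on blue, the MEP column 14 on blue and the CLP column 12 on red.

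**Figure D3:**
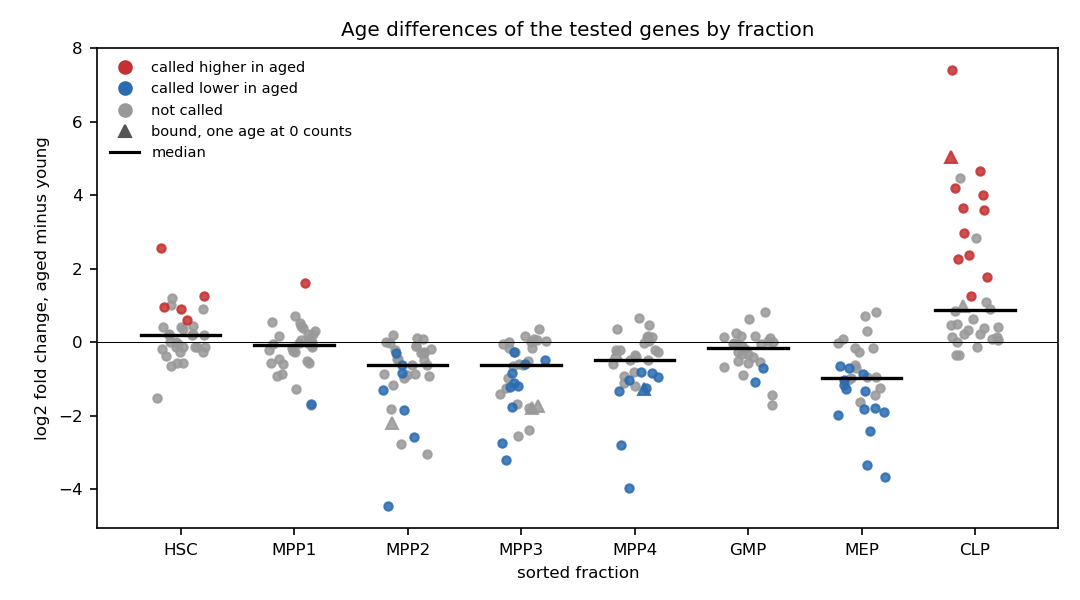
Log2 fold change, aged minus young (vertical axis), of each tested gene above 3 counts at either age, by fraction (horizontal axis), with the median as a bar and triangles at the bound of genes with 0 counts at one age. The medians were below 0 in MPP2 (-0.61), MPP3 (-0.62), MPP4 (-0.47) and MEPs (-0.97), and above 0 in CLPs (0.87).

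In HSCs, 5 of the 34 genes were higher in aged cells and 0 were lower, where 3.74% of all tested genes were higher and 1.66% lower. At an unadjusted p under 0.05 the counts were 7 higher and 3 lower, and DESeq2 called 4 and 2. The median log2 fold change was 0.11 for the 34 genes and 0.02 for all tested genes. It was 0.20 over the 33 genes above 3 counts and -0.02 when fitted on the 4 HSC libraries alone. Plek (chr11:16971206-17052381, GRCm38) stood at 14.7 and 15.1 CPM in young and 100.5 and 75.04 CPM in aged HSCs (log2 fold change of 2.56 ± 0.20 SE, adjusted p = 2.9e-08). Both subunits of the platelet integrin were higher. Itgb3 (chr11:104608000-104670476) stood at 43.3 and 38.1 CPM in young and 101 and 92.99 CPM in aged HSCs (log2 fold change of 1.25 ± 0.30 SE, adjusted p = 0.0087), and Itga2b (chr11:102453297-102470122) at 64.6 and 57.5 CPM in young and 114 and 123 CPM in aged cells (log2 fold change of 0.96 ± 0.15 SE, adjusted p = 0.000164). Vwf (chr6:125546774-125686679) stood at 225 and 218 CPM in young and 400.1 and 437 CPM in aged cells (log2 fold change of 0.92 ± 0.20 SE, adjusted p = 0.00414), the highest levels of this gene in any fraction. Nrgn (chr9:37544492-37552904), the calmodulin-binding protein neurogranin, stood at 144 and 153 CPM in young and 202 and 246 CPM in aged cells (log2 fold change of 0.60 ± 0.11 SE, adjusted p = 0.00104). Young and aged libraries did not overlap for any of the 5.

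The HSC calls differed in firmness. The call of Plek was kept without any 1 of the 4 HSC libraries, that of Itga2b was lost without young replicate 2 (adjusted p = 0.0129), those of Itgb3 (0.0257 to 0.108) and Vwf (0.0144 to 0.0665) were lost without any 1, and that of Nrgn was lost without young replicate 1, young replicate 2 or aged replicate 2 (0.0143 to 0.0317) and when fitted on the 4 HSC libraries alone (0.0363). The number of genes called was 1 without young replicate 2, 2 without young replicate 1 or aged replicate 2 and 3 without aged replicate 1, and the call of Itgb3 was also lost with DESeq2 (adjusted p = 0.0129).

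The granule chemokines did not follow Vwf in HSCs. Pf4 stood at 15.6 and 16.5 CPM in young and 8.99 and 12.7 CPM in aged HSCs (log2 fold change of -0.56 ± 0.36 SE, adjusted p = 0.372), and Ppbp, the precursor of further platelet chemokines, at 4.94 and 5.34 CPM in young and 1.33 and 2.21 CPM in aged cells (log2 fold change of -1.52 ± 0.51 SE, adjusted p = 0.0591). Neither passed the test. Mmrn1, the factor V carrier multimerin-1, varied widely between the aged replicates, at 819 and 460.0 CPM, and overlapped the young values of 553 and 450.4 CPM. Angpt1, a ligand of the receptor Tie2, also differed between the aged replicates (719 and 431 CPM) more than between the young ones (656 and 596 CPM). The summed CPM of 9 neutrophil markers was 272 and 295 in young and 637 and 821 in aged HSCs with 9 of 9 detected at both ages, and its part in these results was not tested.

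**Figure D4:**
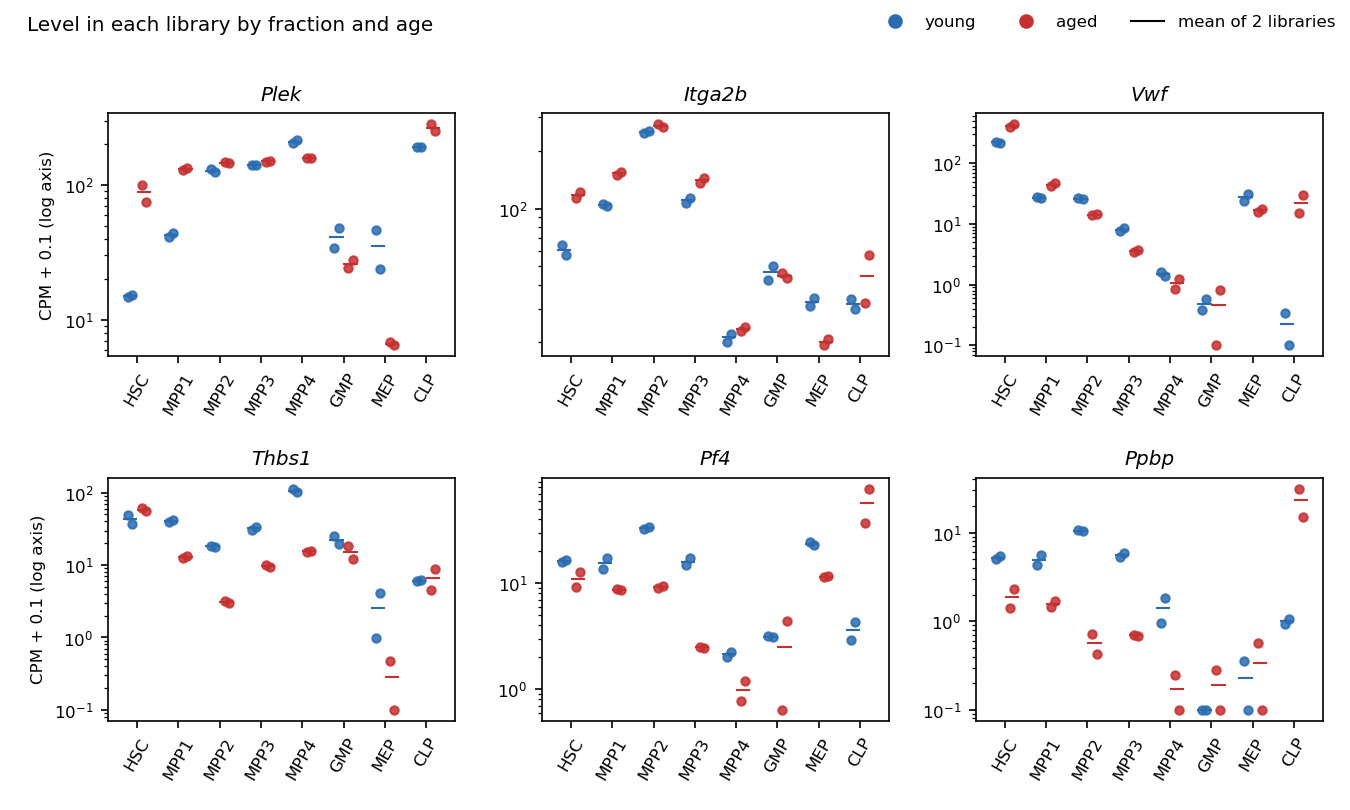
CPM + 0.1 on a log axis (vertical) of Plek, Itga2b, Vwf, Thbs1, Pf4 and Ppbp in every library, by fraction (horizontal), where points are libraries and bars the mean of 2. Plek was higher with age in HSCs and MPP1 and lower in MEPs, and Pf4 and Ppbp were lower with age in MPP2 and MPP3 and higher in CLPs.

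In MPP1, 1 of 34 genes was higher with age and 1 was lower, where 4.71% of all tested genes were higher and 2.09% lower. DESeq2 called 3 higher and 3 lower, and an unadjusted p under 0.05 was reached by 4 higher and 6 lower. Plek stood at 40.95 and 43.6 CPM in young and 128 and 133 CPM in aged cells (log2 fold change of 1.63 ± 0.19 SE, adjusted p = 6.57e-06). Thbs1 (chr2:118111876-118127133) stood at 39.5 and 42.03 CPM in young and 12.4 and 13.2 CPM in aged cells (log2 fold change of -1.67 ± 0.29 SE, adjusted p = 0.000507). The groups overlapped for neither gene, and the call of Thbs1 was lost without aged replicate 1 (adjusted p = 0.0141) or 2 (0.0107), each leaving 1 gene called. The median log2 fold change of the 34 genes was -0.07.

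In MPP2, MPP3 and MPP4 the changes went one way. In MPP2, 7 genes were lower with age and 0 higher (background 3.31% lower and 4.49% higher; 0 higher at an unadjusted p under 0.05 and with DESeq2). In MPP3, 10 were lower and 0 higher (5.79% and 8.14%; 1 higher unadjusted and 0 with DESeq2). In MPP4, 9 were lower and 0 higher (6.27% and 10.3%; 0 higher unadjusted and with DESeq2). The median log2 fold changes of the 34 genes were -0.61, -0.62 and -0.47, those of all tested genes -0.02, -0.04 and -0.02. Thbs1, Ppbp, Gp9, Gp5 and P2rx1 passed the test in each of the 3 fractions, Pf4 and Fermt3 in MPP2 and MPP3, and Ptgs1 and Tbxas1 in MPP3 and MPP4.

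The granule chemokines Ppbp (chr5:90768518-90770063) and Pf4 (chr5:90772435-90773383) fell in MPP2 and MPP3. Ppbp stood at 10.6 and 10.3 CPM in young and 0.611 and 0.326 CPM in aged MPP2 (log2 fold change of -4.46 ± 0.59 SE, adjusted p = 5.02e-05), and at 5.28 and 5.81 CPM in young and 0.603 and 0.583 CPM in aged cells in MPP3 (log2 fold change of -3.20 ± 0.59 SE, adjusted p = 0.000459). In MPP4, where it was near the floor at 0.866 and 1.75 CPM in young and 0.148 and 0 CPM in aged cells, the log2 ratio of the counts was -4.11 with a 95% counting interval of -7.21 to -2.15 (adjusted p = 0.00444). Pf4 stood at 31.97 and 33.9 CPM in young and 8.89 and 9.38 CPM in aged cells in MPP2 (log2 fold change of -1.85 ± 0.36 SE, adjusted p = 0.00138), and at 14.6 and 16.97 CPM in young and 2.41 and 2.33 CPM in aged cells in MPP3 (log2 fold change of -2.73 ± 0.42 SE, adjusted p = 6.97e-05). In MPP4 it stood at 1.92 and 2.13 CPM in young and 0.668 and 1.08 CPM in aged cells and did not pass the test (log2 fold change of -1.19 ± 0.59 SE, adjusted p = 0.152). Young and aged libraries were apart for both genes in all 3 fractions.

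Thbs1 fell from a level that was highest in young MPP4. It stood at 112 and 101 CPM in young and 15.2 and 15.4 CPM in aged MPP4 (log2 fold change of -2.80 ± 0.29 SE, adjusted p = 5.94e-07), at 18.2 and 17.8 CPM in young and 3.12 and 2.86 CPM in aged cells in MPP2 (log2 fold change of -2.59 ± 0.35 SE, adjusted p = 5.37e-05), and at 30.6 and 33.9 CPM in young and 9.78 and 9.18 CPM in aged cells in MPP3 (log2 fold change of -1.76 ± 0.30 SE, adjusted p = 0.000221). Gp9 stood at 21.3 and 22.8 CPM in young and 8.82 and 9.18 CPM in aged cells in MPP2 (log2 fold change of -1.29 ± 0.21 SE, adjusted p = 0.000276), at 11.1 and 11.2 CPM in young and 4.82 and 4.96 CPM in aged cells in MPP3 (log2 fold change of -1.19 ± 0.23 SE, adjusted p = 0.000568), and at 8.29 and 9.51 CPM in young and 3.78 and 3.25 CPM in aged cells in MPP4 (log2 fold change of -1.34 ± 0.24 SE, adjusted p = 0.000228). In each of these fractions every aged library lay below every young one for both genes. The partner subunit Gp5 fell by 0.62 and 1.10 on the log2 scale in MPP2 and MPP3, and stood at 3.22 and 3.96 CPM in young and 1.56 and 1.45 CPM in aged cells in MPP4 (log2 fold change of -1.24 ± 0.28 SE, adjusted p = 0.002). Gp1ba, the subunit that contacts von Willebrand factor, gave -0.44, -0.15 and -0.47 and did not pass (adjusted p 0.443, 0.829 and 0.585).

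Among the other genes of these fractions, P2rx1 stood at 52.6 and 54.99 CPM in young and 30.8 and 29.4 CPM in aged cells in MPP2 (log2 fold change of -0.84 ± 0.18 SE, adjusted p = 0.00275), and Vwf at 7.498 and 8.52 CPM in young and 3.35 and 3.57 CPM in aged cells in MPP3 (log2 fold change of -1.21 ± 0.31 SE, adjusted p = 0.00682), the opposite direction to HSCs. Tubb1, the beta1-tubulin of the platelet coil, had 0.309 and 0.761 CPM in young MPP4 and 0 counts in both aged libraries, at least 1.28 lower on the log2 scale (adjusted p = 0.00875). The enzymes of thromboxane synthesis were lower in MPP3 and MPP4: Ptgs1 fell by 0.59 and 0.94 and Tbxas1 by 0.49 and 0.82 on the log2 scale. Angpt1 fell by 0.85 in MPP4. The integrin subunit Itga2b, which was higher in aged HSCs, did not pass the test in MPP2 (log2 fold change of 0.10 ± 0.14 SE, adjusted p = 0.704) or MPP3 (log2 fold change of 0.35 ± 0.15 SE, adjusted p = 0.0873).

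Calls in these fractions lost firmness when a library was left out. In MPP2, 3 genes were called whichever of the 4 libraries was left out, and the calls of Pf4 (adjusted p 0.011 to 0.0254) and P2rx1 (0.0229 to 0.0448) were lost each time. In MPP3, 5 were called whichever was left out, and Vwf was lost each time (0.0271 to 0.0584). In MPP4 the count was 7 without young replicate 1, 5 without young replicate 2 or aged replicate 2 and 4 without aged replicate 1, and the calls lost were Tubb1 without any 1 (0.0106 to 0.061) and Ppbp (0.0121 to 0.0644) and Gp5 (0.0144 to 0.0237) without young replicate 2, aged replicate 1 or aged replicate 2. Fitted on the 4 MPP4 libraries alone, Ppbp (adjusted p = 0.0216) and Gp5 (0.019) were also lost. The fitted log2 fold change of Ppbp in MPP4 was -7.15 without aged replicate 1 and -3.04 without aged replicate 2. The summed CPM of 10 erythroid markers, 10 of 10 detected, was 682 and 785 in young and 223 and 229 in aged MPP2 and 712 and 820.5 in young and 228 and 208 in aged cells in MPP3. That of 8 macrophage markers, 8 of 8 detected, was 149.7 and 163 in young and 52.9 and 55.99 in aged cells in MPP2 and 140.1 and 151 in young and 45.9 and 45.4 in aged cells in MPP3. In MPP4 the macrophage sum was 69.2 and 73.97 in young and 40.4 and 36.4 in aged cells. The sum of 9 neutrophil markers, 9 of 9 detected, was 2568 and 2688 in young and 1849 and 1832 in aged MPP2. It was 4508 and 4779 in young and 2185 and 2210 in aged MPP3, and 787 and 841 in young and 830 and 860 in aged MPP4. The part of these markers in the results was not tested.

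In GMPs, 2 of 34 genes were lower with age and 0 were higher, where 8.97% of all tested genes were lower and 9.93% higher. Without adjustment, a p under 0.05 was reached by 7 lower and 1 higher, and DESeq2 called 4 and 0. Rap1b, the small GTPase that activates the integrin, stood at 489 and 500.5 CPM in young and 297 and 318 CPM in aged GMPs (log2 fold change of -0.69 ± 0.07 SE, adjusted p = 7.01e-07). Angpt1 stood at 34.2 and 26.9 CPM in young and 13.7 and 15.2 CPM in aged cells (log2 fold change of -1.08 ± 0.22 SE, adjusted p = 0.000977), and its call was lost without young replicate 1 (adjusted p = 0.0176) or aged replicate 1 (0.0225). The groups overlapped for neither gene. The count of called genes was 1 without aged replicate 1 and 4 without young replicate 2. The sum of 10 erythroid markers was 797 and 752 CPM in young GMPs, with 10 of 10 detected, and 214 and 199.8 CPM in aged GMPs, with 8 of 10 detected and Epor and Ermap at 0. That of 6 basophil and mast cell markers, 6 of 6 detected, was 702 and 702 CPM in young and 312 and 386 CPM in aged GMPs, and the part of these markers was not tested. Several genes of the set were at or near 0 in GMPs: Ltbp1 and Tubb1 had 0 counts at both ages, Gp6 and Cd226 likewise, and Ppbp and P2ry12 had at most 3 counts in all at either age.

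In MEPs, 14 of 34 genes were lower with age and 0 were higher, where 11.7% of all tested genes were lower and 9.08% higher. No gene was higher at an unadjusted p under 0.05 or with DESeq2 either, and the median log2 fold change was -0.99, or -0.97 over the 31 genes above 3 counts. The 14 were Thbs1, Tbxa2r, Plek, Ptgs1, Gng11, Mmrn1, Angpt1, Rab27b, Tbxas1, Cd9, Nrgn, F2r, Itga2b and Rap1b. Tbxa2r stood at 5.19 and 7.82 CPM in young and 0.937 and 0.344 CPM in aged MEPs (log2 fold change of -3.34 ± 0.35 SE, adjusted p = 3.54e-07). Plek stood at 46.5 and 23.8 CPM in young and 6.75 and 6.37 CPM in aged cells (log2 fold change of -2.43 ± 0.23 SE, adjusted p = 8.48e-08), the opposite direction to HSCs. Ptgs1 stood at 7.49 and 4.16 CPM in young and 1.499 and 1.46 CPM in aged cells (log2 fold change of -1.98 ± 0.26 SE, adjusted p = 6.83e-06). Gng11, a G protein gamma subunit, stood at 1.66 and 1.36 CPM in young and 0.375 and 0.4303 CPM in aged cells (log2 fold change of -1.89 ± 0.36 SE, adjusted p = 0.000379). Thbs1 stood at 0.896 and 4.02 CPM in young and 0.375 and 0 CPM in aged cells (log2 fold change of -3.67 ± 0.85 SE, adjusted p = 0.00211). Young and aged libraries did not overlap for these 5, although the young replicates of Thbs1 and Plek lay apart from each other.

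Other genes with high levels in MEPs did not pass the test. Gp5 stood at 90.4 and 92.3 CPM in young and 87.5 and 92.8 CPM in aged MEPs (log2 fold change of -0.02 ± 0.15 SE, adjusted p = 1), the ADP receptor P2ry1 at 35.2 and 35.4 CPM in young and 30.8 and 32.4 CPM in aged cells (log2 fold change of -0.16 ± 0.22 SE, adjusted p = 0.665), and Gp1ba at 15.8 and 11.99 CPM in young and 11.3 and 13.7 CPM in aged cells (log2 fold change of -0.15 ± 0.35 SE, adjusted p = 0.837). Pf4, although its aged libraries lay below the young ones, stood at 24.1 and 22.5 CPM in young and 11.3 and 11.4 CPM in aged cells without passing it (log2 fold change of -1.03 ± 0.36 SE, adjusted p = 0.0312). F2r, the thrombin receptor PAR1, stood at 103 and 94.2 CPM in young and 54.7 and 54.1 CPM in aged cells and did pass (log2 fold change of -0.86 ± 0.23 SE, adjusted p = 0.00713). Cd226, an adhesion receptor that was not tested, had 10 and 9 counts in young MEPs and 0 in both aged libraries, at least 1.25 lower on the log2 scale. In aged CLPs it had 4 and 22 counts, against 7 and 3 in young CLPs.

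Leaving out 1 library moved the log2 fold change of Thbs1 in MEPs to -4.45 (young replicate 1), -2.31 (young replicate 2), -8.09 (aged replicate 1) or -2.69 (aged replicate 2), and that of Tbxa2r to -4.22 without aged replicate 1. The call of Thbs1 in MEPs was lost without young replicate 2 (adjusted p = 0.0728) or aged replicate 2 (0.0441), and 9 genes were called without aged replicate 2. Fitted on the 4 MEP libraries alone, 6 genes were called, and of the 5 above, Thbs1 (adjusted p = 0.0755), Tbxa2r (0.0116), Ptgs1 (0.0261) and Gng11 (0.0657) were not among them. The summed CPM of 8 B cell markers was 194 and 182 in young MEPs, with 8 of 8 detected, and 1.22 and 0.4303 in aged MEPs, with 2 of 8 detected and Cd79a, Ebf1 and Pax5 among those at 0. That of 10 erythroid markers, 10 of 10 detected, was 7330.0 and 7195 in young and 7923 and 7797 in aged MEPs. Cd48, which the MEP gate does not use, stood at 52.9 and 52.97 CPM in young and 13.4 and 15.1 CPM in aged MEPs. The part of these markers in the result was not tested.

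In CLPs, 12 of 34 genes were higher with age and 0 were lower, where 5.71% of all tested genes were higher and 4.73% lower. At an unadjusted p under 0.05 the counts were 21 and 1, and with DESeq2 16 and 0. The median log2 fold change was 0.87, the same with 2 genes at their bound, against 0.00 for all tested genes. The 12 genes were the 4 subunits of the glycoprotein Ib-IX-V complex, Treml1, Pf4, Ppbp, Vwf, the thrombin receptors F2r and F2rl2, Rab27b and the cation channel Trpc6. Treml1 had 0 counts in both young libraries and 3.55 and 12.5 CPM in the aged ones, at least 5.03 higher on the log2 scale (adjusted p = 2.35e-05). Vwf stood at 0.247 and 0 CPM in young and 15.3 and 29.6 CPM in aged CLPs, a log2 ratio of counts of 7.53 with a 95% counting interval of 5.97 to 9.81 (adjusted p = 2.05e-09). Ppbp stood at 0.822 and 0.972 CPM in young and 31.1 and 15.1 CPM in aged cells (log2 fold change of 4.67 ± 0.56 SE, adjusted p = 6.84e-06). Pf4 stood at 2.79 and 4.21 CPM in young and 36.4 and 77.2 CPM in aged cells (log2 fold change of 4.02 ± 0.41 SE, adjusted p = 5.02e-07). Gp5 stood at 0.7395 and 0.891 CPM in young and 13.6 and 16.9 CPM in aged cells (log2 fold change of 4.21 ± 0.27 SE, adjusted p = 4.23e-10). For all 12 genes every aged library lay above every young one.

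The levels reached in aged CLPs can be set beside those of the other aged fractions. For Pf4 and Ppbp they were the highest of the 8, above those of aged HSCs (8.99 and 12.7 CPM for Pf4 and 1.33 and 2.21 CPM for Ppbp). For Vwf, the aged CLP values lay below those of aged HSCs, at 400.1 and 437 CPM. The other subunits of the receptor complex stood at 10.96 and 8.84 CPM (Gp1ba), 7.03 and 11.8 CPM (Gp1bb) and 3.78 and 5.28 CPM (Gp9) in aged CLPs. In young CLPs the 3 genes lay between 0.648 and 1.62 CPM. Gp1bb shares 1902 of its 2087 exon bases with Sept5 on the same strand, so that reads of the pair may have been split in the counting. On the opposite strand, Plek shares 199 exon bases with Cnrip1 and Thbs1 shares 208 with Gm29233, and whether the counting used strand is not given. Gp6, the collagen receptor, had 17 and 8 counts in aged CLPs and 0 in young CLPs, at least 1.96 higher on the log2 scale, and in the other groups it had counts only in 1 young MEP library. Clec1b, the podoplanin receptor, stood at 0.7395 and 0 CPM in young and 2.78 and 2.601 CPM in aged CLPs and did not pass the test (log2 fold change of 2.84 ± 1.07 SE, adjusted p = 0.0749).

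**Figure D5:**
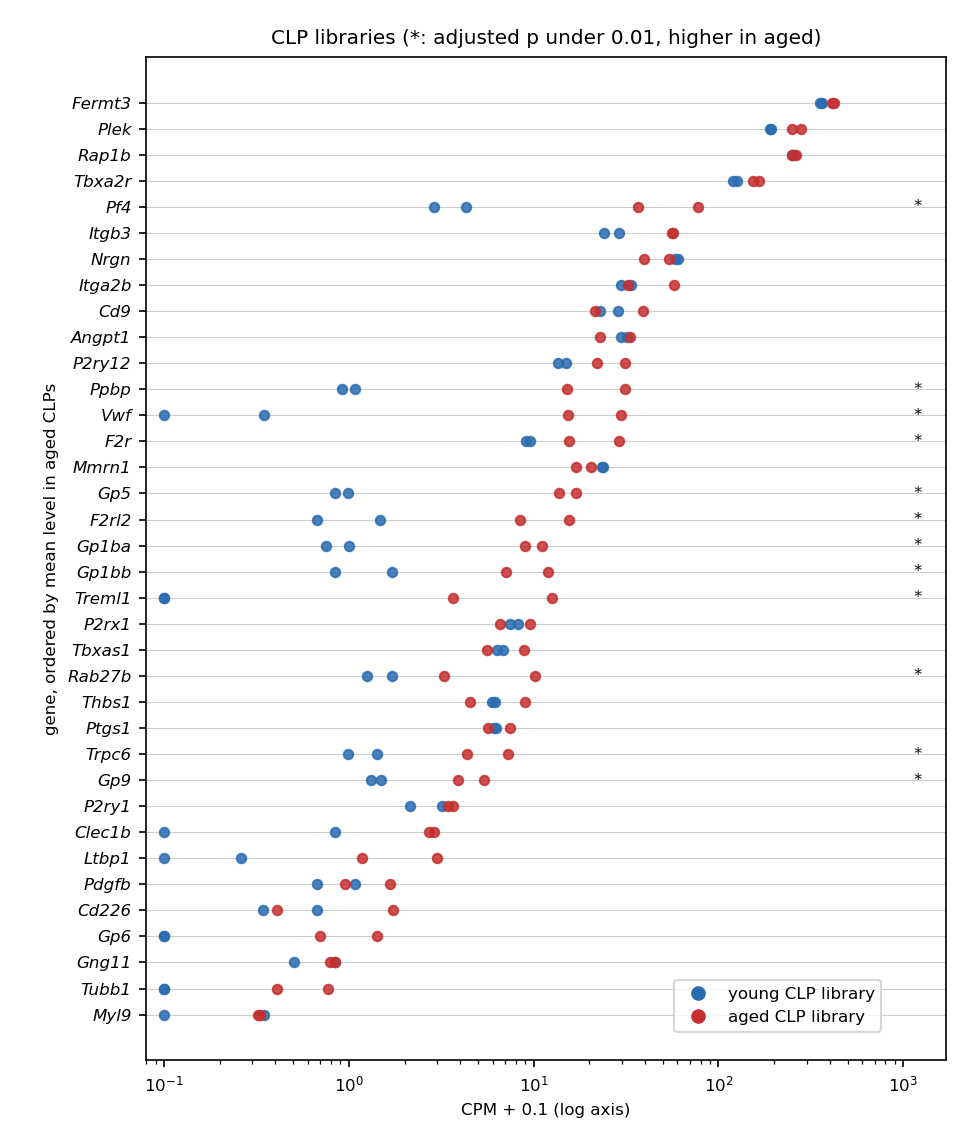
CPM + 0.1 on a log axis (horizontal) of the 36 genes in the 2 young and 2 aged CLP libraries, ordered by the mean level in aged CLPs (vertical), with stars on the 12 genes called higher. Fermt3, Plek and Rap1b led the order in aged CLPs, with young and aged points close together, and the young and aged points of Pf4, Ppbp, Vwf, Gp5 and Treml1 lay far apart.

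Rap1b, Fermt3 and Tbxa2r, which had the highest levels per kilobase in young CLPs, did not pass the test. Rap1b stood at 255 and 250.1 CPM in young and 261 and 252 CPM in aged cells, Fermt3 at 354 and 363 CPM in young and 412 and 423 CPM in aged cells and Tbxa2r at 119.7 and 125 CPM in young and 166 and 153 CPM in aged cells, and the adjusted p-values were 0.912, 0.0154 and 0.0924. P2ry12, the ADP receptor that clopidogrel blocks, stood at 14.95 and 13.5 CPM in young and 30.96 and 21.99 CPM in aged cells, higher than in every other fraction at either age (log2 fold change of 0.90 ± 0.38 SE, adjusted p = 0.107).

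For the genes of the set, the 2 aged CLP libraries differed from each other more than other duplicates did. Over the 34 tested genes the median log2 difference between them was -0.48, with replicate 2 higher. In the other 15 groups it lay between -0.16 and 0.02, where differences of opposite sign cancel. Without sign, the median difference was 0.52 in aged CLPs, 0.39 in young MEPs, 0.35 in young GMPs and 0.30 in aged HSCs. Pf4 and Treml1 were higher in aged CLP replicate 2 and Ppbp in aged CLP replicate 1. The log2 fold change of Pf4 with age was 3.36 without aged replicate 2 and that of Ppbp 4.06 without aged replicate 1. That of Vwf, fitted at 7.42, was 11.23 without young replicate 1, which held its 3 young counts, and 6.45 without young replicate 2. The number of genes called was 9 without either young replicate and 14 without aged replicate 1, and it was 3 when fitted on the 4 CLP libraries alone, where Treml1 (adjusted p = 0.0313), Ppbp (0.0101) and Pf4 (0.0124) were lost. In the same libraries the summed CPM of 8 B cell markers, 8 of 8 detected, was 2676 and 2744 in young and 1256 and 1261 in aged CLPs. That of 6 basophil and mast cell markers was 1786 and 1842 in young CLPs, with 6 of 6 detected, and 8.96 and 16.3 in aged CLPs, with Prss34 at 0. The sum of 10 erythroid markers went from 1172 and 1217 to 491 and 295. That of 8 macrophage markers went from 203 and 223 to 51.2 and 75.3, with 7 of 8 detected in aged CLPs and Cd5l at 0. That of 9 neutrophil markers, 9 of 9 detected, went from 1950 and 1998 to 370 and 364. The sums of T and NK cell markers (110 and 112 to 155 and 122) and of endothelial and stromal markers (216 and 211 to 248 and 261) went up. The part of these markers, and that of Ly6a, in the result was not tested.

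Whether age effects differed between fractions was tested by contrasting the age difference of HSCs, MEPs or CLPs with the mean age difference of MPP1 to MPP4, which is shared by the 3 contrasts. The HSC age difference was higher than that of the MPPs for 5 of 34 genes and lower for 0, where 1.91% of all tested genes were higher and 1.1% lower. Unadjusted (p under 0.05) the counts were 18 and 0, and with DESeq2 12 and 0. The 5 were Thbs1 (2.65 ± 0.32 SE on the log2 scale, adjusted p = 2.62e-05), Plek (2.18 ± 0.22, 2.69e-06), Vwf (1.41 ± 0.26, 0.00211), Gp5 (1.08 ± 0.19, 0.00103) and Nrgn (0.61 ± 0.12, 0.00378). Thbs1, at 49.1 and 36.6 CPM in young and 61.4 and 54.9 CPM in aged HSCs, did not pass the test within HSCs (log2 fold change of 0.44 ± 0.27 SE, adjusted p = 0.352). Without young HSC replicate 1 the count was 2 and without young HSC replicate 2 it was 3. Vwf was lost without either young HSC replicate (adjusted p 0.013 and 0.0229) and Gp5 without young HSC replicate 1 (0.0166) or aged HSC replicate 2 (0.0107).

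The MEP age difference was lower than that of the MPPs for 9 of 34 genes and higher for 2, where 14.7% of all tested genes were lower and 10.2% higher. The largest were Tbxa2r (-3.37 ± 0.36 SE on the log2 scale, adjusted p = 5.09e-07), Plek (-2.81 ± 0.25, 2.9e-08), Gng11 (-1.58 ± 0.37, 0.00345) and Ptgs1 (-1.54 ± 0.28, 0.000173), with Angpt1, Cd9, Nrgn, Itga2b and Rap1b behind them. Gp5 (0.65 ± 0.18, 0.00751) and Fermt3 (0.31 ± 0.07, 0.00111) differed the other way. Without aged MEP replicate 1 the value of Tbxa2r was -4.27. The call of Gp5 was lost without any 1 of 17 of the 20 libraries compared, and with no filter on low counts (adjusted p = 0.0138). That of Fermt3 was lost without young MEP replicate 2 (0.0569) or aged MEP replicate 2 (0.0746), and that of Gng11 without young MEP replicate 1 or either aged MEP replicate (0.0238 to 0.0311).

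The CLP age difference was higher than that of the MPPs for 17 of 34 genes and lower for 0, where 10.3% of all tested genes were higher and 12.3% lower. At an unadjusted p under 0.05 the counts were 23 and 1, and with DESeq2 20 and 0. The largest fitted differences were those of Treml1 (11.91 on the log2 scale, adjusted p = 2.41e-06), Tubb1 (8.26, 0.000552), Ppbp (8.01, 3.12e-08) and Vwf (7.91, 3.49e-09). The values of Treml1 and Tubb1 depend on the prior count, since both had 0 counts in young CLPs and in aged MPP4, and they are no measure of size. Those of Ppbp and Vwf rest in part on groups with 2 or 3 counts in all (aged MPP4 for Ppbp and young CLPs for Vwf). Over the 20 libraries left out in turn, that of Ppbp ran from 7.38 (without aged CLP replicate 1) to 8.77 (without aged MPP4 replicate 1), and that of Vwf from 6.92 to 11.71 (without young CLP replicate 2 or 1). Tubb1 itself stood at only 0.309 and 0.669 CPM in aged CLPs. Clec1b, Fermt3, Thbs1, P2ry12 and Tubb1 were called in this contrast and not within CLPs.

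A further list of 30 platelet and megakaryocyte genes outside the set was counted beside it, of which 28 were tested. In aged against young cells HSCs gave 6 higher and 1 lower, MPP1 gave 2 and 1, and MPP2 gave 1 and 2. MPP3 and MPP4 gave 1 and 6 each, GMPs 7 and 0, MEPs 3 and 11, and CLPs 10 and 3. Of all tested genes, 3.74% were higher and 1.66% lower in HSCs, 4.71% and 2.09% in MPP1, and 4.49% and 3.31% in MPP2. These shares were 8.14% and 5.79% in MPP3, 10.3% and 6.27% in MPP4, and 9.93% and 8.97% in GMPs. They were 9.08% and 11.7% in MEPs, and 5.71% and 4.73% in CLPs. For GMPs, 2 genes of the list were lower at an unadjusted p under 0.05 and 0 with DESeq2. The 7 higher in aged GMPs were Selp, Clu, Rasgrp2, Tln1, Syk, Bin2 and Unc13d. The GMP call of Clu was lost whichever GMP library was left out. That of Unc13d was lost without either young replicate or aged replicate 1. In young MEPs against young GMPs the list gave 6 higher and 15 lower, so its genes were not mainly those of MEPs. The summed level of the list was 5107 and 5291 CPM in young GMPs and 1317 and 1388 CPM in young MEPs. Selp, the alpha-granule adhesion receptor P-selectin, was higher in 7 of the 8 fractions, from 38.9 and 33.8 CPM to 428 and 442 CPM in HSCs (log2 fold change of 3.58 ± 0.15 SE, adjusted p = 1.6e-12) and from 0.247 and 0 to 4.32 and 5.28 CPM in CLPs (log2 ratio of counts 5.30, 95% counting interval 3.72 to 7.59, adjusted p = 1.29e-07). The fitted value of Selp in CLPs was 9.003 without young replicate 1 and 4.23 without young replicate 2. Clu, a secreted chaperone, was higher in HSCs (25.3 and 25.03 against 191 and 239 CPM, log2 fold change of 3.09 ± 0.23 SE, adjusted p = 1.14e-08). It was also called higher in MPP1, GMPs and CLPs, by 2.85, 1.11 and 2.18 on the log2 scale. In MPP3 it was lower (3.33 and 3.41 against 0.268 and 0.292 CPM, log2 fold change of -3.55 ± 0.50 SE, adjusted p = 2.77e-05). In MEPs, Rasgrp2, an activator of Rap1, stood at 15.6 and 17.3 CPM in young and 0.7496 and 0.688 CPM in aged cells (log2 fold change of -4.50 ± 0.15 SE, adjusted p = 1.49e-15).

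Of 10 transcription factors of the megakaryocyte lineage, 4 were lower with age in each of MPP2, MPP3 and MPP4. In MEPs 3 were lower, in GMPs 2, in CLPs 1, and in HSCs and MPP1 0. Of all tested genes, 3.31%, 5.79% and 6.27% were lower in MPP2, MPP3 and MPP4, 11.7% in MEPs, 8.97% in GMPs and 4.73% in CLPs. In HSCs and MPP1 1.66% and 2.09% were lower, and the shares called higher ran from 3.74% to 10.3% over the fractions. None of the 10 factors was higher in any fraction. With an unadjusted p under 0.05 between 0 and 3 were higher, depending on the fraction, and with DESeq2 between 0 and 1. Gfi1b, a transcriptional repressor that acts within erythroid and megakaryocyte cells, fell by 0.66, 1.01 and 1.07 on the log2 scale in MPP2, MPP3 and MPP4. Gata1 fell by 0.64 and 1.62 in MPP2 and MPP3. In MPP2 both calls, and that of Runx1, were lost whichever of the 4 libraries was left out. The same held for Runx1 in MPP3 and for Meis1 and Mef2c in MPP4. Without young replicate 2 or aged replicate 1, the calls of Mef2c in MPP2 and Nfe2 in MPP4 were lost. That of Gata1 in GMPs was lost without young replicate 2 or either aged replicate. Those of Gata1, Gfi1b and Mef2c in MPP3 and Gfi1b in MPP4 were kept each time. Gata1 stood at 9.65 and 8.29 CPM in young and 3.48 and 2.33 CPM in aged MPP3. In MEPs, Fli1, an ETS factor of platelet genes, stood at 33.5 and 55.9 CPM in young and 7.496 and 7.06 CPM in aged cells (log2 fold change of -2.62 ± 0.17 SE, adjusted p = 1.45e-10), while Gata1 stood at 417 and 445 CPM in young and 529 and 527 CPM in aged cells (log2 fold change of 0.29 ± 0.14 SE, adjusted p = 0.1252). In CLPs, where 12 genes of the platelet set rose, Gata2 stood at 48.9 and 56.7 CPM in young and 0.695 and 4.31 CPM in aged cells (log2 fold change of -4.38 ± 0.30 SE, adjusted p = 1.48e-09), Gata1 at 5.75 and 3.97 CPM in young and 1.85 and 3.57 CPM in aged cells (log2 fold change of -0.83 ± 0.27 SE, adjusted p = 0.0353) and Gfi1b at 25.1 and 24.1 CPM in young and 29.3 and 42.2 CPM in aged cells (log2 fold change of 0.54 ± 0.15 SE, adjusted p = 0.0157). Without aged CLP replicate 1 or 2 the log2 fold change of Gata2 was -3.61 or -6.24. Gata2 is also among the 6 basophil and mast cell markers.

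Further genes of the set varied as follows. Ltbp1 had 0 and 2 counts in young CLPs and 1.08 and 2.898 CPM in aged CLPs, a log2 ratio of counts of 4.62 with a 95% counting interval of 2.70 to 7.70, and did not pass the test (adjusted p = 0.0123). In MEPs it stood at 8.899 and 10.2 CPM in young and 4.97 and 4.91 CPM in aged cells (log2 fold change of -0.95 ± 0.68 SE, adjusted p = 0.318). Pdgfb, a platelet growth factor, was highest in HSCs, at 10.9 and 11.2 CPM in young and 6.72 and 7.44 CPM in aged cells (log2 fold change of -0.64 ± 0.43 SE, adjusted p = 0.395). Myl9, a myosin light chain, stood below 1 CPM in all 32 libraries. Trpc6 was highest in HSCs (133 and 127 CPM in young and 135 and 105 CPM in aged cells) and rose in CLPs from 1.31 and 0.891 to 4.25 and 7.21 CPM (log2 fold change of 2.37 ± 0.52 SE, adjusted p = 0.0026). Cd9, a tetraspanin, stood at 25.03 and 25.1 CPM in young and 12.2 and 10.3 CPM in aged cells in MEPs (log2 fold change of -1.16 ± 0.19 SE, adjusted p = 8.57e-05). Rab27b fell in MEPs (9.41 and 14.1 to 5.06 and 4.303 CPM) and rose in CLPs (1.15 and 1.62 to 3.17 and 10.1 CPM). F2rl2, the receptor PAR3, rose in CLPs from 0.575 and 1.38 to 8.34 and 15.5 CPM (log2 fold change of 3.59 ± 0.48 SE, adjusted p = 2.09e-05).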

How the data were processed

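Total RNA of 32 libraries from 8 sorted fractions of young and aged marrow was amplified by the authors from low input and sequenced in reads of 61 cycles. Per the labels, TopHat2 2.0.13, Bowtie2 2.1.0, StringTie and DESeq2 were used with build mm10. The deposited table held raw read counts for 24421 genes, with no normalization. Whether the counting used strand is not given in the sources used here. Of the symbols, 27 looked like calendar dates, as spreadsheets make from gene names, and none belongs to the set. The authors' counts were taken as deposited, and 6683 genes had no count in any library.

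Counts were fitted over all 32 libraries with edgeR 4.0.16 (R 4.3.3, limma 3.58.1) with 1 coefficient for each of the 16 groups. TMM scaling, filterByExpr and quasi-likelihood tests of 14 contrasts were used, with p-values adjusted by the Benjamini-Hochberg method within a contrast and a threshold of 0.01. Bounds take 3 counts in each library as a floor, and intervals and floors cover counting error only. The 95% intervals of count ratios are exact. The rule for genes given in full was every called member in HSCs, up to 5 with the largest log2 fold change in each direction in the other fractions, up to 4 in each direction in the other contrasts, and up to 3 of each further list per fraction. Other genes whose values are given were chosen after those values were seen. The members and lists were chosen with earlier results of these data known. Alternatives were DESeq2 1.42.0, its size factors, no filter, the libraries of a contrast alone, a replicate block, other thresholds and leaving out each library. The fit was tested on simulated counts for the HSC comparison only, with the same dispersion for every gene and changes placed only in genes of higher counts. That test does not cover genes of few counts or the other contrasts. Some items of the further lists are not reported here.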

Additional observations from a re-analysis of the deposited data

Results flagged for a closer look

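The age difference of HSCs, MEPs or CLPs differed from the mean age difference of MPP1 to MPP4, by a test of the difference itself (edgeR's quasi-likelihood test, adjusted p over all tested genes), for 5 genes of the set in HSCs, 11 in MEPs and 17 in CLPs. These were 5 higher and 0 lower in HSCs, 2 and 9 in MEPs, and 17 and 0 in CLPs. Of all tested genes, 1.91% were higher and 1.1% lower for HSCs, 10.2% and 14.7% for MEPs, and 10.3% and 12.3% for CLPs. Given here are up to 4 genes of the set in each direction with the largest differences. For HSCs they were Thbs1 (2.65 on the log2 scale, adjusted p = 2.62e-05), Plek (2.18, 2.69e-06), Vwf (1.41, 0.00211) and Gp5 (1.08, 0.00103). For MEPs they were Tbxa2r (-3.37, 5.09e-07), Plek (-2.81, 2.9e-08), Gng11 (-1.58, 0.00345) and Ptgs1 (-1.54, 0.000173) in one direction, and Gp5 (0.65, 0.00751) and Fermt3 (0.31, 0.00111) in the other. For CLPs they were Treml1 (11.91, 2.41e-06), Tubb1 (8.26, 0.000552), Ppbp (8.01, 3.12e-08) and Vwf (7.91, 3.49e-09), where the size of the first pair depends on the prior count and the other values rest in part on groups with 2 or 3 counts. The 3 contrasts share the MPP libraries.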

How the results depend on the processing

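None of the 66 named changes of 22 genes reversed direction under any alternative. DESeq2 size factors, no filter on low counts and a replicate block left all 14 counts of called genes within 1.5 times. Where a change of 1 or more on the log2 scale was also required, the counts were 2 in HSCs, 4 in MPP2, 6 in MPP3, 1 in GMPs and 6 for MEPs against the MPPs. Fitted on the libraries of the contrast alone, they were 12 in MPP1, 18 in MPP2, 6 in MEPs, 3 in CLPs, 16 for HSCs against the MPPs and 18 for young MPP2 against MPP3. DESeq2 called 6 in MPP1, 4 in GMPs, 12 for HSCs against the MPPs, 18 for MEPs against the MPPs and 9 for young MPP2 against MPP3. At an adjusted p under 0.05 they were 5 in MPP1, 12 in MPP2, 5 in GMPs, 12 for HSCs against the MPPs, 18 for MEPs against the MPPs and 8 for young MPP2 against MPP3.

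Leaving out each library in turn gave 1 to 3 called genes in HSCs, 1 to 2 in MPP1, 3 in MPP2, 5 in MPP3, 4 to 7 in MPP4, 1 to 4 in GMPs, 9 to 16 in MEPs and 9 to 14 in CLPs. It gave 2 to 5 for HSCs, 9 to 13 for MEPs and 14 to 19 for CLPs against the MPPs, 21 to 24 for young HSCs against MPP4, 3 for MPP2 against MPP3 and 21 to 24 for MEPs against GMPs. The lone library left in a group was assumed to vary like the others. The replicate numbers did not pair the libraries (correlations of duplicate differences -0.056 to 0.070 over the 8 fractions). The replicate block gave 4 called genes in HSCs, 8 in MPP2, 13 in MEPs and 5 for young MPP2 against MPP3, with the other counts unmoved, and lost Itgb3 in HSCs (adjusted p = 0.0105) and Tubb1 in MPP4 (0.0109). The median log2 change of the set was compared with the median signed difference between duplicates, divided by the square root of 2. The largest such value among the groups of a contrast was used. The change moved by more than that in 4 of 14 contrasts with DESeq2, 4 with its size factors and 3 with no filter. It did so in 6 on the libraries of the contrast alone. Signed differences cancel between genes, so this yardstick was near 0 in some contrasts and does not measure the spread of single genes. In MPP2 the signed medians were -0.0003 in young and 0.008 in aged cells. The median log2 change of the set changed sign only in HSCs, on their own libraries (-0.02). With 1 library left out no median changed sign. It ran from -0.60 (without aged replicate 2) to 0 in GMPs and from 0.40 (without young MEP replicate 1) to 2.25 in young MEPs against GMPs. Thbs1 in young HSCs against MPP4 was lost without young HSC replicate 2 (0.0172). Depth limits the genes near 3 counts, such as Ppbp in MPP4 and Gp6 and Cd226 throughout.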
